A study of Mus musculus with 12 samples.

Results

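Dtx4 and 9 other genes of the Notch pathway were examined in mouse aorta after a short exposure to CM-695. The 10 genes are the Deltex genes Dtx4 and Dtx3, the receptors Notch1, Notch2 and Notch3, the ligands Jag1 and Dll4, and the target genes Hes1, Hey1 and Heyl, out of 22180 genes measured by a probe set that names a single gene. They were picked by name with earlier results of the same comparison known: Dtx4 because it rose after CM-695, the others because they belong to its pathway, to ask whether Notch targets follow Dtx4. The differences of these 10 genes between the groups are therefore given as a description. All mice were female CD-1, an outbred stock. CM-695, which inhibits both histone deacetylase 6 and phosphodiesterase 9, was injected intraperitoneally into 6 mice at 80 mg/kg, 2 h and again 1 h before sacrifice. The other 6 mice received saline vehicle, for which the series design names a single injection, so injection number may differ between the groups. Neither age nor time of day of collection is given in these sources. Whole aortic vessel was taken after perfusion with buffered saline, and each array held the RNA of 1 mouse.

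Notch receptors are activated by ligands of the Jagged and Delta-like families on a neighbouring cell, are cut by ADAM proteases and by gamma-secretase, and release an intracellular domain that joins the DNA-binding protein RBPJ and Mastermind to switch on genes of the HES and HEY families. Deltex proteins are cytoplasmic ubiquitin ligases that act on Notch and its trafficking, and Dtx4 is also known to target the interferon-pathway kinase TBK1 for degradation. In arteries, Notch1, Dll4 and Hey1 are known for their role in endothelial cells, and Notch3, Jag1 and Heyl for theirs in smooth muscle.

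Expression was on a log2 scale over 41345 probe sets. The 12 arrays had medians of 4.69 to 4.74 and correlated with each other at 0.957 to 0.977. Every one of the 10 genes had a single probe set naming it alone, with a mean over the 12 mice above the median of all probe sets, 4.70. All 10 vascular smooth muscle markers and all 11 endothelial markers lay above that median. So did all 9 heart muscle, 8 fibroblast and 6 adipocyte markers. The same held for all 5 mesothelial and 3 Schwann cell markers measured, 5 of 6 leukocyte and 3 of 6 skeletal muscle markers. Lying above this median therefore does not single out the labelled tissue. Differences are CM-695 minus vehicle, from limma over all probe sets with Benjamini-Hochberg adjustment and a threshold of 0.05. Of the 10 genes, 1 passed, Dtx4, against 0.167% of all genes in either direction and 0.0225% upward. Those shares are given for reference, since the comparison itself chose Dtx4.

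Dtx4 separated the treated from the vehicle mice without overlap, with higher levels after CM-695. It ran from 5.88 through a median of 6.04 to 6.29 in the vehicle mice and from 6.63 through 6.88 to 6.96 in the CM-695 mice. Vehicle mouse 4 was the highest of its group at 6.29 and CM-695 mouse 4 the lowest of its own at 6.63, so the groups did not overlap, as was true of 0.442% of all genes upward and 1.08% in either direction. Dtx4 measured 6.07 ± 0.18 after vehicle and 6.85 ± 0.12 after CM-695 (SD, n = 6 each). The means differed by 0.78 log2 units (SE 0.10), which is 1.72-fold. The limma adjusted p of 0.00723 is the value by which it was chosen. Heart muscle and fibroblast markers were lower on average after CM-695, and none of them passed the threshold (limma adjusted p 0.212 to 0.554 and 0.343 to 0.786). Before adjustment 8 of the 9 heart muscle and 4 of the 8 fibroblast markers had a p under 0.05. All 9 heart muscle markers had a difference below 0, with a median difference of -1.67, and their mean per mouse ran from 7.40 to 9.51 after vehicle and from 6.18 to 8.54 after CM-695. With that mean as a covariate the Dtx4 difference was 0.69 (SE 0.14, limma adjusted p = 0.159). All 8 fibroblast markers had a difference below 0, with a median difference of -0.44 and means per mouse of 8.64 to 9.45 against 8.43 to 8.88. With the fibroblast mean as a covariate, a fit added after the values were seen, the Dtx4 difference was 0.83 (SE 0.14, adjusted p = 0.0828).

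**Figure D1:**
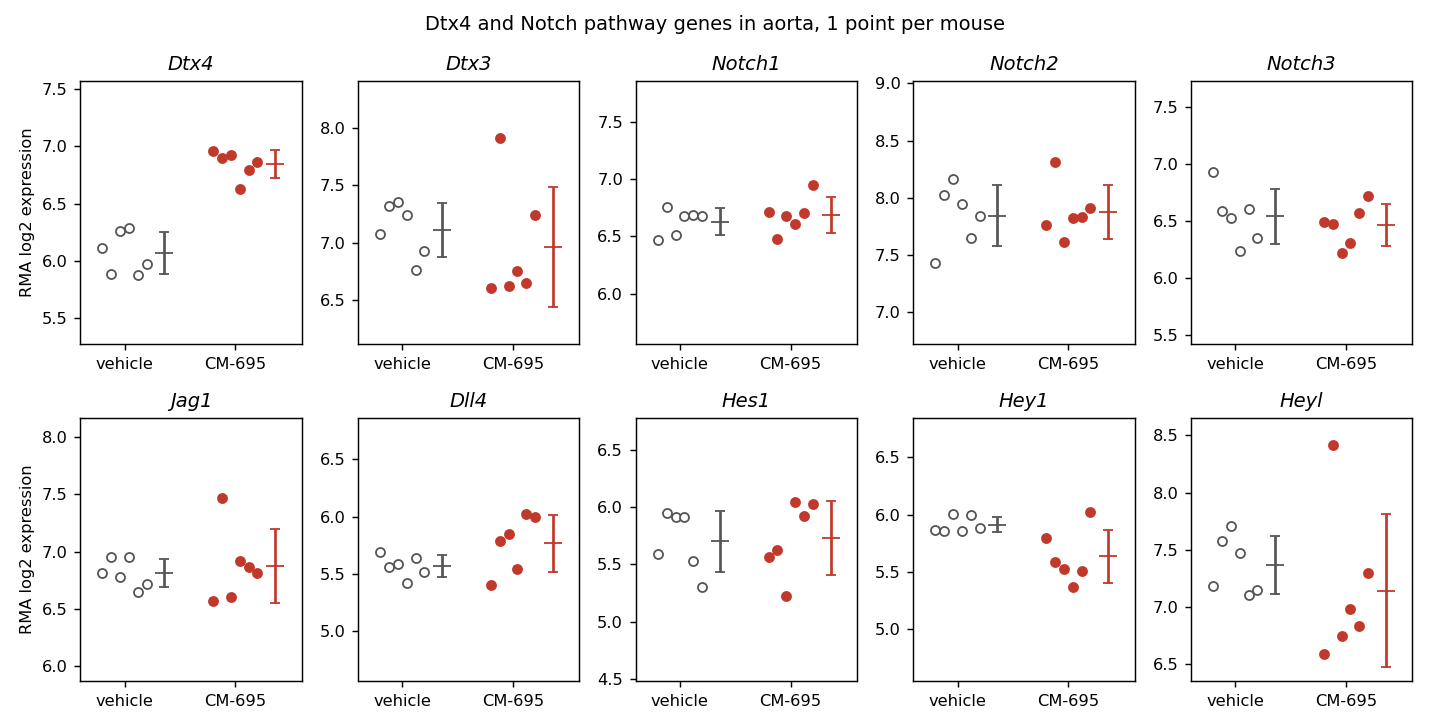
RMA log2 expression of the 10 genes in each mouse, vehicle as open and CM-695 as filled circles, with the group mean and SD beside the points. Each panel spans the same number of log2 units. Dtx4 separates the groups, at most 6.29 after vehicle and at least 6.63 after CM-695, while the groups overlap in the other 9 panels.

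None of the other Deltex genes measured passed the threshold. Dtx3, which lacks the Notch-binding domain of its relatives, ran from 6.76 through a median of 7.16 to 7.35 after vehicle and from 6.61 through 6.70 to 7.92 after CM-695. CM-695 mouse 2 stood highest of all 12 mice and 4 CM-695 mice lay below every vehicle mouse, so the spread was wide, 7.11 ± 0.24 against 6.96 ± 0.52 (SD, n = 6 each), with a difference of -0.15 (SE 0.21), which was -0.34 without CM-695 mouse 2. Dtx2, a closer relative of Dtx4 in the Deltex family, was the 1 gene of the 97 measured pathway genes outside the 10 whose groups did not overlap, a share near the 1.08% of all genes, with vehicle mice from 5.47 to 5.92 and CM-695 mice from 5.97 to 6.30. Its difference was 0.43 (SE 0.095), in the direction of Dtx4, and its limma adjusted p was 0.128, outside the threshold. Leaving out 1 mouse at a time kept the Dtx2 difference between 0.37 and 0.47 (adjusted p 0.125 to 0.256). Dtx1 differed by -0.11 (SE 0.11, adjusted p = 0.804), and Dtx3l was not measured by a probe set of its own. The Dtx2 promoter is shown because Dtx2 had the largest difference of the Deltex genes after Dtx4. Capitals mark the core of the RBPJ binding motif, TGGGAA on either strand, found at 1 place in this window around the gene's start; the sequence is from RefSeq.
Dtx2 promoter, GRCm38.p6, chr5:135994550-135994849, plus strand: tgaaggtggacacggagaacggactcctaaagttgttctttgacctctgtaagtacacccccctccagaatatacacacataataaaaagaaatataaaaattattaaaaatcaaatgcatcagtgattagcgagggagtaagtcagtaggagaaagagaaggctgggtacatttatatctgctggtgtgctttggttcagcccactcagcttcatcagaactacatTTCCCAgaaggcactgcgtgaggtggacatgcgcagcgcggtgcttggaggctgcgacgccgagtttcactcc

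The receptor transcripts did not separate the groups. Notch1 ran from 6.47 through a median of 6.68 to 6.76 after vehicle and from 6.48 through 6.69 to 6.95 after CM-695. Notch2 ran from 7.43 through 7.89 to 8.17 and from 7.61 through 7.83 to 8.31. Notch3 ran from 6.24 through 6.56 to 6.92 and from 6.22 through 6.48 to 6.72. The groups overlapped over most of their range for each receptor, and the differences were 0.06 for Notch1 (SE 0.095, 95% confidence interval -0.14 to 0.26), 0.03 for Notch2 (SE 0.14, interval -0.27 to 0.34) and -0.07 for Notch3 (SE 0.12, interval -0.34 to 0.19). Notch4, the endothelial receptor of the family, differed by -0.08 (SE 0.090, limma adjusted p = 0.836).

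Among ligands Dll1, Dll3 and Dll4 had the largest differences, and none passed. Before adjustment 2 of the 7, Dll1 and Dll3, had a limma p under 0.05 and a positive difference, as did 4.96% of all genes. Dll4, the ligand of arterial endothelium and sprouting tip cells, ran from 5.42 through a median of 5.57 to 5.69 after vehicle and from 5.41 through 5.82 to 6.02 after CM-695. Of the CM-695 mice 4 lay above every vehicle mouse and 1 below, and the difference was 0.20 (SE 0.11, 95% confidence interval -0.05 to 0.44). A further probe set that names Dll4 together with the predicted gene Gm14207 differed by 0.22 (SE 0.11). Jag1, a ligand of endothelium and smooth muscle, ran from 6.65 through 6.80 to 6.96 and from 6.57 through 6.84 to 7.47, with CM-695 mouse 2 at the top, and differed by 0.06 (SE 0.14). Dll1 differed by 0.56 (SE 0.13, adjusted p = 0.153), at 4.71 to 5.20 after vehicle and 5.13 to 5.90 after CM-695, with 5 CM-695 mice above every vehicle mouse. With the adipocyte marker mean as a covariate, added after the values were seen, Dll1 was the pathway gene that passed, at 0.65 (SE 0.11, adjusted p = 0.0370). Dll1 has 2 probe sets, and with their mean in place of the brighter one the difference was 0.29 (SE 0.10, adjusted p = 0.305). Over the 24 alternatives its adjusted p ran from 0.0370 to 0.485. Dll3 differed by 0.24 (SE 0.11, adjusted p = 0.518), and the Delta-like homologue Dlk2 by 0.18 (SE 0.13, adjusted p = 0.704). Of 7 ligands measured, 6 were above 0 and 1 below, with a median of 0.18; over all genes the median was 0.02. With the heart muscle mean as a covariate the ligand median was 0.05.

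None of the 3 target genes passed the threshold. Hes1, a repressor that responds directly to the RBPJ complex, ran from 5.30 through a median of 5.75 to 5.95 after vehicle and from 5.22 through 5.77 to 6.04 after CM-695. The groups covered nearly the same range, with a difference of 0.03 (SE 0.16, 95% confidence interval -0.31 to 0.38). Hey1, a target known from endothelium, ran from 5.86 through 5.88 to 6.00 after vehicle and from 5.37 through 5.55 to 6.02 after CM-695, so that 5 CM-695 mice lay below every vehicle mouse and mouse 6 lay above them all. Its mean was 5.91 ± 0.068 after vehicle and 5.63 ± 0.23 after CM-695 (SD, n = 6 each). The difference of -0.28 (SE 0.11) did not pass (adjusted p = 0.458), and without CM-695 mouse 6 it was -0.35 (SE 0.093, adjusted p = 0.245). Heyl, a target known from vascular smooth muscle, ran from 7.11 through 7.33 to 7.71 and from 6.59 through 6.91 to 8.42. Of the CM-695 mice 4 lay below every vehicle mouse while mouse 2 was the highest of all, and the difference was -0.22 (SE 0.26). Without CM-695 mouse 2 the Heyl difference was -0.48 (SE 0.15, adjusted p = 0.284).

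Over the 9 HES and HEY genes measured, 5 were above 0 and 4 below, with a median of 0.02. None passed, and 1 of the 9, Hey1, had an unadjusted limma p under 0.05 with a negative difference, as did 4.14% of all genes. Hes5 differed by 0.26 (SE 0.13, adjusted p = 0.586), Hes7 by 0.13 (SE 0.089, adjusted p = 0.709) and Hes3 by -0.08 (SE 0.14, adjusted p = 0.898). Among 13 other genes known to respond to Notch, 9 were above 0 and 4 below, with a median of 0.04. Nrarp, a feedback inhibitor that binds the Notch intracellular domain, differed by 0.29 (SE 0.13, adjusted p = 0.519), the pre-T-cell receptor gene Ptcra by 0.15 (SE 0.12) and the transcription factor gene Gata2 by 0.16 (SE 0.12). The Hes5 and Hey2 promoters are shown as Notch targets whose windows hold the RBPJ core, in capitals, at 2 places each. Of the 10 genes, 5 (Notch1, Notch2, Notch3, Jag1 and Dll4) matched a window in the RefSeq promoter table. Of the 4 HES and HEY genes with a window, 3 held TGGGAA on either strand in at least 1 window, as did 28 of the 84 pathway genes with a window and 28.3% of all 27025 genes in the table. Over all 32851 windows of this length the share was 25.6%. The windows of the 4 receptors and 7 ligands held none. The E-box CACGTG, the D-box TTATGTAA and the heat shock element core GAANNTTC, searched on both strands, were not in the windows printed here, so no marked core overlaps them. A match is a run of letters and not a measured binding site.
Hes5 promoter, GRCm38.p6, chr4:154960673-154960972, plus strand: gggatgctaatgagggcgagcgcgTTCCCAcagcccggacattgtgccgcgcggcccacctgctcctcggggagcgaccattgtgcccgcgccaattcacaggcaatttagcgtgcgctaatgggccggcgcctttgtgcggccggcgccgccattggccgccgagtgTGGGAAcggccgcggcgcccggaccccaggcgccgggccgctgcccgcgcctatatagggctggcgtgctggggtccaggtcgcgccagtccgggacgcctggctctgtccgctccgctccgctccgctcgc
Hey2 promoter, GRCm38.p6, chr10:30842734-30843033, minus strand: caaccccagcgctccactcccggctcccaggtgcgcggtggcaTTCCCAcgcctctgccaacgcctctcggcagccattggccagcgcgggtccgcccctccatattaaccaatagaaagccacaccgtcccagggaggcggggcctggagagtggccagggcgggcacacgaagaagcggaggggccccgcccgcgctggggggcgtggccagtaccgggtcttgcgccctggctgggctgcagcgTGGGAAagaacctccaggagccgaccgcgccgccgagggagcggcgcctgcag

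**Figure D2:**
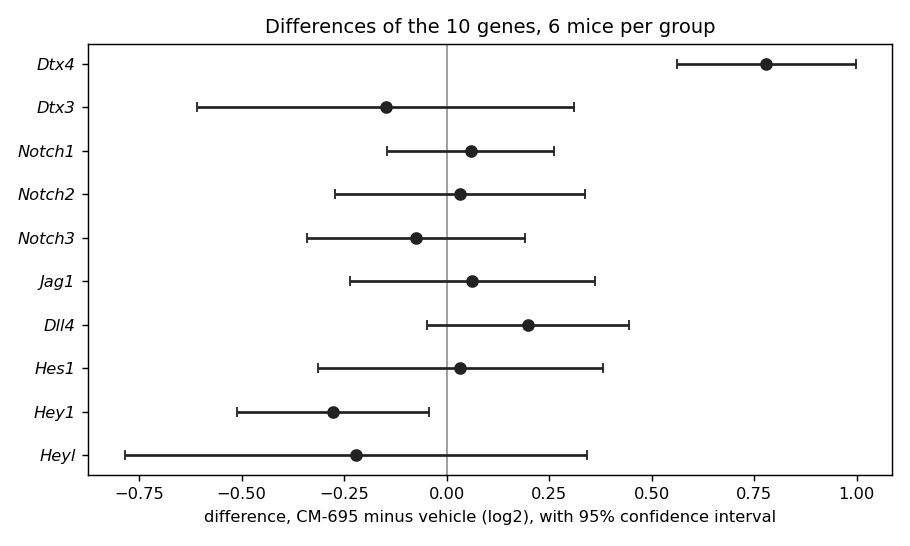
Difference of each of the 10 genes between CM-695 and vehicle on the log2 scale, with limma's 95% confidence interval, 6 mice per group. The point for Dtx4 lies at 0.78, and the points of the other genes lie between -0.28 and 0.20.

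The rest of the pathway was followed through lists of known components. Of 101 pathway genes outside the 10, 97 were measured and none passed the threshold in either direction. Here and in the other counts, pathway genes include those of a list around TBK1 and interferon, 19 of them measured. Before adjustment, 7 of the 97 had a limma p under 0.05 and a positive difference and 0 a negative one. Over all genes the shares were 4.96% and 4.14%. None of the 7 was in the list around TBK1. The median over the 97 was -0.00, with 47 above 0 and 50 below. Among 6 genes of receptor maturation and glycosylation, 5 were above 0, with a median of 0.17. The protease gene Furin, which cuts the receptor on its way to the surface, differed by 0.34 (SE 0.14, adjusted p = 0.463), and the Fringe sugar transferase genes Rfng and Mfng by 0.23 (SE 0.097) and 0.22 (SE 0.16). Among 8 genes of receptor cleavage the median was -0.02, and the gamma-secretase subunit genes Ncstn, Aph1a and Psenen differed by -0.15 (SE 0.080), -0.18 (SE 0.13) and 0.12 (SE 0.11).

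Of 9 genes of the nuclear complex, 8 were below 0, with a median of -0.08. The acetyltransferase gene Ep300 differed by -0.17 (SE 0.089, adjusted p = 0.585), the Mastermind gene Maml2 by -0.29 (SE 0.21) and the acetyltransferase gene Kat2a by 0.13 (SE 0.091). The 11 measured corepressors had a median of 0.03, with -0.15 (SE 0.083) for the histone demethylase gene Kdm5a, -0.32 (SE 0.20) for Tle1 and 0.14 (SE 0.090) for Ctbp1. The 6 genes of ligand endocytosis had a median of 0.02, with 0.24 (SE 0.14) for Neurl2, -0.12 (SE 0.083) for Mib2 and 0.26 (SE 0.18) for Neurl1b, all genes of ubiquitin ligases or their subunits. The 12 genes of receptor turnover had a median of -0.06. Arrb1, which encodes beta-arrestin, differed by 0.26 (SE 0.084, adjusted p = 0.342), the Notch inhibitor gene Numb by -0.15 (SE 0.089) and the ubiquitin ligase gene Itch by -0.18 (SE 0.12). The 19 genes around TBK1 and interferon, the other known arm of Dtx4, had a median of -0.02, with 8 above 0 and 11 below. Of these, Nlrp4a to Nlrp4g, Ifnb1, Isg15 and Cxcl10 had mean levels below the median of all probe sets. Their means ran from 2.20 for Nlrp4f to 4.69 for Cxcl10, with Ifnb1 at 3.30 and Isg15 at 4.18. Tbk1, Ikbke and the rest of the list lay above it. Whether the dim genes were expressed was not tested. With dim probe sets left out the median difference of the list was -0.05. Isg15, an interferon-induced ubiquitin-like protein gene, differed by 0.36 (SE 0.17, adjusted p = 0.558), the kinase gene Ikbke by -0.15 (SE 0.089) and Ifnb1, interferon beta, by -0.20 (SE 0.13).

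**Figure D3:**
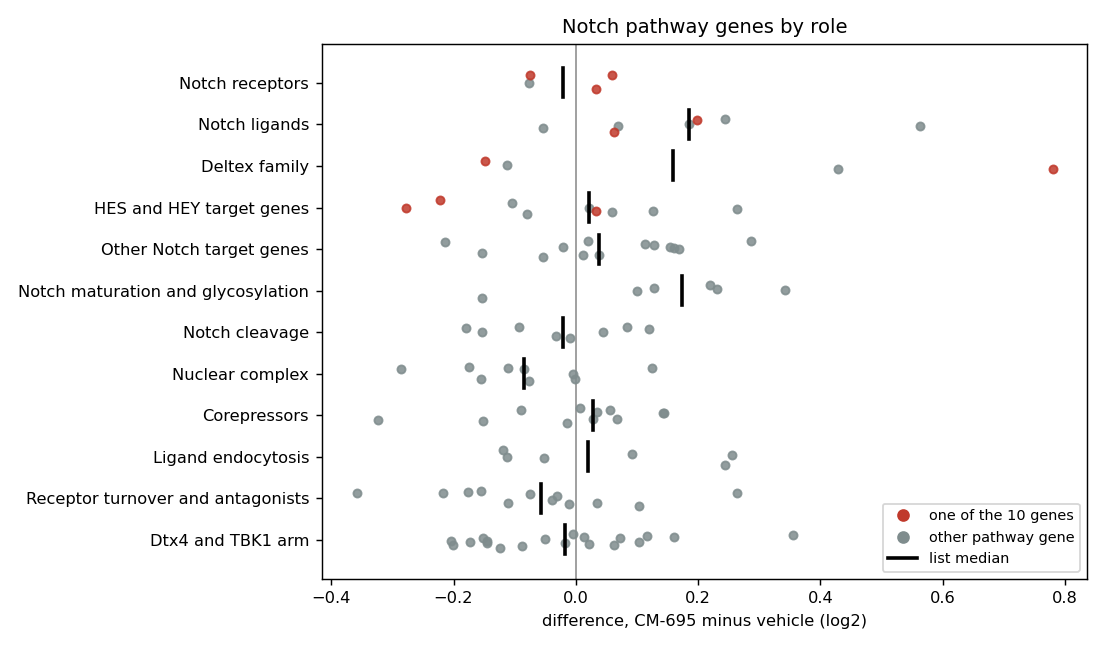
Difference between CM-695 and vehicle on the log2 scale for each measured gene of the pathway lists, grouped by role. The lists include the one around TBK1 and interferon. The 10 genes are in red, other genes in grey, and the list median is a black bar. Dtx4 stands at 0.78 and the other genes between -0.36 and 0.56.

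Whether Notch genes follow Dtx4 was also asked between mice of the same group, which does not use the group difference. Over 18 relations of Dtx4 with the other 9 genes, each within 6 mice, r ran from -0.71 to 0.56, with 13 of them above 0. None passed after Benjamini-Hochberg adjustment (smallest adjusted p = 0.976, exact two-sided permutation test of r), and 0 had an unadjusted p under 0.05. Hes1 gave r = 0.45 and rho = 0.31 with Dtx4 among vehicle mice (exact permutation p = 0.344 and 0.564) and r = -0.71 and rho = -0.89 among CM-695 mice (exact permutation p = 0.0944 and 0.0333, adjusted p = 0.976 and 0.600). Without the 2 mice farthest from the median of Dtx4 these r were -0.30 and -0.67. Hey1 gave r = 0.01 among vehicle mice and r = 0.56 among CM-695 mice (exact permutation p = 0.972 and 0.261; rho = -0.26 and 0.60), and without the farthest 2 mice -0.47 and -0.40. The smallest exact permutation p that 6 mice can give is 0.00139 for r, and it is larger for rho.

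Heyl, Dtx3 and Notch2 among CM-695 mice, and Hes1 among vehicle mice, correlated with the smooth muscle marker mean by Pearson's r after adjustment. By Spearman's rho none of the 4 relations passed (exact permutation p = 0.0167, adjusted p = 0.133 each). The mean of the 10 smooth muscle markers ran from 8.94 to 9.83 in vehicle mice and from 8.46 to 10.40 in CM-695 mice, and CM-695 mouse 2, the highest of all for Heyl, Dtx3, Jag1 and Notch2, was also the highest for this mean. In these bulk samples fewer smooth muscle cells and less RNA per cell cannot be told apart. The relations with this mean and with the endothelial mean, 40 in all, were examined after the values had been seen and adjusted together. With the smooth muscle mean Jag1 gave r = 0.79 among vehicle and 0.92 among CM-695 mice (exact permutation test, adjusted p = 0.366 and 0.130). Notch3 gave r = -0.33 and 0.30 (exact permutation test, adjusted p = 0.860 each). Heyl gave r = 0.96 and rho = 0.94 among CM-695 mice (exact permutation p = 0.00417, adjusted p = 0.0417, both for r) and r = 0.94 and rho = 0.71 among vehicle mice (exact permutation p = 0.0611 for r and 0.136 for rho, adjusted p = 0.272 for r). Without the 2 mice farthest from the median of the marker mean, r was 0.94 and 0.88. For the next 3 genes p is that of r. Dtx3 gave r = 0.96 and rho = 0.94 among CM-695 mice (exact permutation p = 0.00417, adjusted p = 0.0417) and r = 0.91 and rho = 0.71 among vehicle mice (exact permutation p = 0.0181, adjusted p = 0.130), and 0.88 and 0.91 without the farthest 2. Notch2 gave r = 0.95 and rho = 0.94 among CM-695 mice (exact permutation p = 0.00278, adjusted p = 0.0417) and r = 0.77 and rho = 0.54 among vehicle mice (exact permutation p = 0.100, adjusted p = 0.366), and 0.82 and 0.94 without the farthest 2. Hes1 gave r = 0.96 and rho = 0.94 among vehicle mice (exact permutation p = 0.00417, adjusted p = 0.0417) and gave r = 0.30 and rho = 0.60 among CM-695 mice (exact permutation p = 0.557), with 0.997 among vehicle mice and 0.778 among CM-695 mice without the farthest 2; the difference between the groups was not tested.

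Dtx4 itself gave r = 0.49 and rho = 0.54 with the smooth muscle mean among vehicle mice and r = -0.08 and rho = -0.43 among CM-695 mice (exact permutation p = 0.254 and 0.839 for r), and r = 0.07 and -0.38 without the farthest 2 mice. With the endothelial mean it gave r = 0.84 and rho = 0.89 among vehicle mice and r = 0.22 and rho = -0.31 among CM-695 mice (exact permutation p = 0.0389 and 0.658 for r, adjusted p = 0.194 and 0.860), and r = 0.68 and 0.85 without the farthest 2 mice. With the smooth muscle mean as a covariate the Dtx4 difference was 0.79 (SE 0.10). With the same covariate the Heyl difference was -0.02 (SE 0.11) in place of -0.22 (SE 0.26). That of Dtx3 was 0.01 (SE 0.096) in place of -0.15 (SE 0.21). Hey1 was at -0.27 (SE 0.11) and Hes1 at 0.10 (SE 0.15). Heyl, Dtx3, Hey1 and Hes1 passed the threshold in neither fit, and the cause of the changes was not tested. Hey2, another target known from smooth muscle and chosen after its values were seen, measured 9.04 in CM-695 mouse 2 and from 6.82 to 7.73 in the other CM-695 mice, against 7.08 to 8.10 after vehicle.

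**Figure D4:**
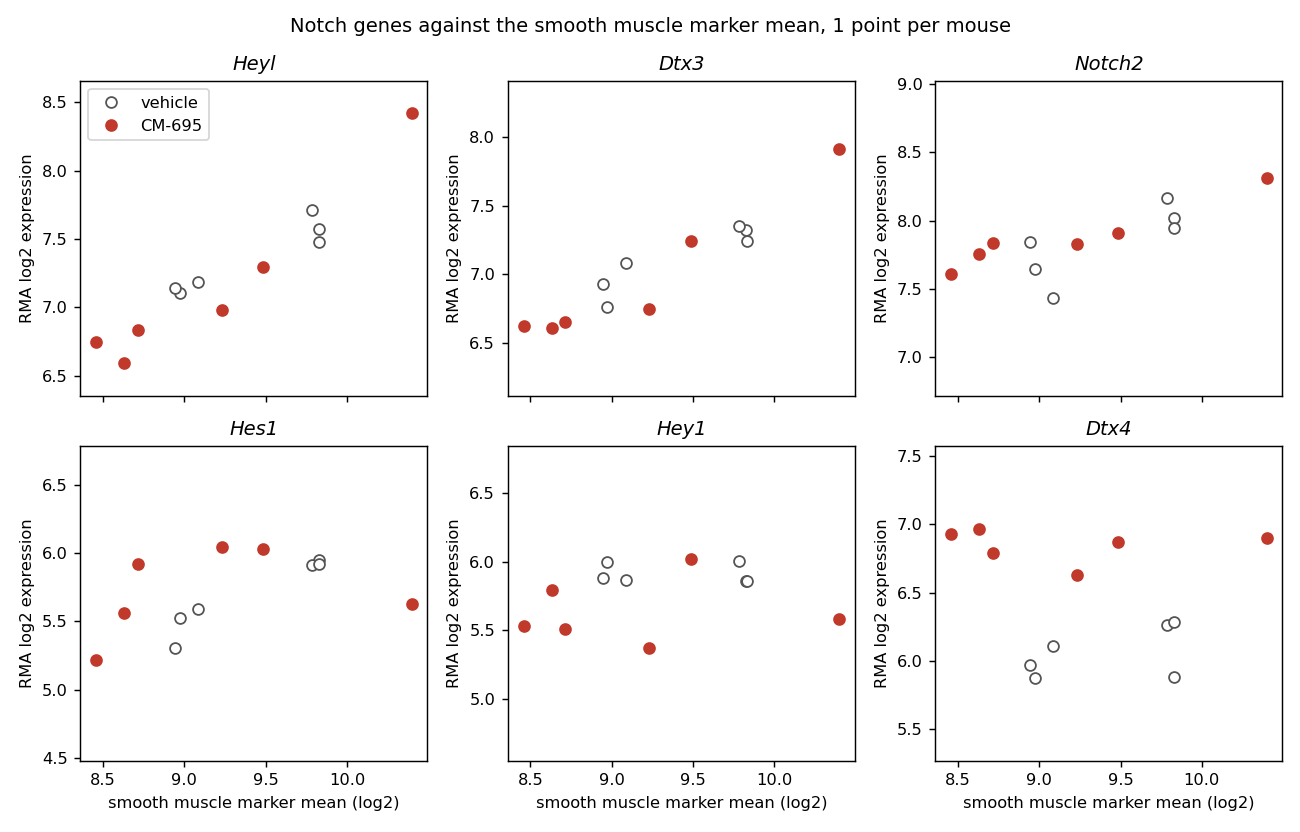
RMA log2 expression of 6 of the genes against the mean of the smooth muscle markers in each mouse, vehicle as open and CM-695 as filled circles. Heyl, Dtx3 and Notch2 lie highest in CM-695 mouse 2, where the marker mean is 10.40. Vehicle mice cover only 8.94 to 9.83 of the marker mean. For Dtx4 all CM-695 mice lie above all vehicle mice, inside and outside that range, and Dtx4 was chosen on this group difference.

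The genes whose pattern over the 12 mice was most like that of Dtx4 were sought among 11999 named genes above the median of all probe sets, with Pearson r as a description. They were Gpc4, a glypican of the cell surface (r = 0.94), Arntl, which encodes the clock activator BMAL1 (0.92), Afap1l2 (0.90), Ankrd50 (0.90) and Prdm15 (0.89). Over the 12 mice such a likeness holds the group difference, which was 2.69 for Arntl (limma adjusted p = 2.80e-06) and 0.26 for Gpc4 (adjusted p = 0.244). Time of day of collection is not given, so whether it was the same in both groups is not known. After each group was centred on its mean, Arntl was at r = -0.11. The highest values were those of Gja4, the connexin 37 gene of arterial endothelium (0.88), Cacng5 (0.87), Shc2 (0.85), the olfactory receptor gene Olfr1411 (0.85) and Mrgpra1 (0.85). They are the top of 11999 genes ranked on 12 mice, and these r were not tested. Between the groups Gja4 differed by -0.28, against Dtx4 in direction, with r = -0.33 over the 12 mice. Cacng5, Shc2, Olfr1411 and Mrgpra1 differed by -0.00, 0.03, 0.03 and 0.08. Among the 9 other Notch genes the centred r ran from -0.22 for Notch1 to 0.30 for Hey1.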

How the data were processed

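Expression was measured in the aorta of 12 mice, 6 per group, on 1 Affymetrix array each. The deposited table holds log2 values that the authors made with RMA, which corrects background, normalizes arrays and summarizes probe sets, per the submitters' processing notes; no source used here gives the software or its version. Its values carry no detection calls, and the precision of a difference depends on the number of mice and on the spread of the gene between them.

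The platform annotation named 23521 probe sets with a single symbol, 1814 with several and 16010 with none; the highest mean stood for a gene with several probe sets. All 41345 probe sets were tested with limma 3.58.1 (lmFit and eBayes) in R 4.3.3, two-sided, with Benjamini-Hochberg adjustment. Marker means are per mouse. Correlations used exact permutation of pairings.

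The genes and lists were chosen with earlier results of these data known. Named were the 10 genes, up to 3 genes per pathway list with the smallest p, and the 5 genes most like Dtx4 over 12 mice and, separately, after centring each group. Alternatives were leaving out dim probe sets, a block on the replicate number, repeated quantile normalization, median centring, array weights, eBayes with trend and robust, marker means as covariates, leaving out each mouse, and averaging probe sets. Equal mouse numbers in both groups marked no pairing in the labels.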

Additional observations from a re-analysis of the deposited data

Results flagged for a closer look

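Among the 10 genes no single mouse stood apart from its group by Dixon's ratio, the gap of the highest or lowest mouse to its nearest neighbour divided by the range of the group and set against its 95% critical value. Among 33 other pathway genes described in the report, a CM-695 mouse stood apart for 4, each time above its group, and these were 3 mice. Furin measured 8.70 in CM-695 mouse 3, the next mouse being at 8.15. Rfng measured 6.75 in CM-695 mouse 2 against 6.47, and Ep300 measured 7.82 in the same mouse against 7.62. Nrarp measured 5.69 in CM-695 mouse 6 against 5.29. These are 4 of 86 groups of mice examined, and chance marks about 1 group in 20.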

How the results depend on the processing

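Dtx4 was chosen on this comparison in the same mice, so its values under the alternatives are a description. The Dtx4 difference kept its direction under all 24 alternatives, from 0.69 to 0.83, and passed in 21. It did not pass with the replicate number as a block (0.78, SE 0.11, adjusted p = 0.116), with the heart muscle mean as a covariate (0.69, adjusted p = 0.159) or with the fibroblast mean, added later (0.83, adjusted p = 0.0828), and the count of the 10 genes past the threshold was then 0. With 1 mouse left out it was 0.74 to 0.82, with adjusted p up to 0.0269, and 1 gene passed each time. Same-numbered mice deviated together with r from -0.10 to 0.10, so the number is not taken as a pairing. All fits with a block, a covariate or 1 mouse left out have fewer residual degrees of freedom than the report's fit, the block fewest. Why Dtx4 passed in some of them and not in others was not tested. None of 216 values of the other 9 genes passed (smallest adjusted p = 0.245). Dll4 went from 0.20 to 0.39 with the heart muscle mean (adjusted p = 0.612) and Notch2 from 0.03 to 0.34 with the fibroblast mean (adjusted p = 0.709). Signs changed for Hes1 in 6 of 24 alternatives, Notch2 in 5, Dtx3 in 3, Heyl in 2 and Notch3 and Jag1 in 1 each; Hey1, Dll4 and Notch1 kept theirs. Of the other pathway genes 0 passed except with the adipocyte mean, where 1 did, Dll1; with 1 mouse left out the count was 0. Over all genes 37 passed in the report's fit, 14 with the block, 79 with the dim filter, 73 with probe sets averaged, 72, 9, 59 and 14 with the smooth muscle, heart muscle, adipocyte and fibroblast means, and 19 to 57 with 1 mouse left out. Correlations with Dtx4 turned sign without the 2 farthest mice among vehicle mice for Notch2 (-0.72), Notch3 (0.60), Dll4 (0.50), Hes1 (-0.30), Hey1 (-0.47) and Heyl (-0.35), and among CM-695 mice for Dtx3 (-0.64), Notch1 (-0.34), Notch2 (-0.45), Notch3 (-0.56), Dll4 (-0.91), Hey1 (-0.40) and Heyl (-0.56), with 4 mice left.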
